A study of Danaus plexippus with 48 samples.

Results

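RNA sequencing libraries of monarch butterfly (Danaus plexippus) brains were searched for genes with more transcript in the first of the paired pools (rep1) than in the second (rep2) in every group, and the 40 genes whose excess was largest in the group where it was smallest are described. They were selected on that difference itself. For each gene, FPKM (fragments scaled to transcript length and to the mapped fragments of the library) was taken as log2(FPKM + 1), and rep2 was subtracted from rep1 at each time of day. Of 15130 deposited genes, 11630 had a mean of at least 0.5 FPKM over the 48 libraries and are called the tested genes. Among these, 689 were higher in rep1 in all 8 pairs of the LP group, and 77 of the 689 also had a mean difference above 0 in the other groups. The 40 members were the genes of the 77 whose smallest group difference was largest. The rep1 minus rep2 values are therefore given as a description, without a test.

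All butterflies were wild-type, and a library held the pooled brains of 3 animals, from which the pigmented retinal layer had been removed. LP butterflies were raised in the laboratory under a long photoperiod (15 h light, 9 h dark) and SP butterflies under a short one (10 h light, 14 h dark). Migrant butterflies were caught in the wild in autumn and housed under 11 h light and 13 h dark. Every group had 1 rep1 pool and 1 rep2 pool at each of 8 zeitgeber times (ZT, in hours from lights-on), namely 1, 4, 7, 10, 13, 16, 19 and 22. The sex labels do not follow the replicate number in every group: rep1 is labelled female in LP and Migrant and male in SP, and rep2 the reverse. Migrant libraries were made with another kit than LP and SP libraries, so kit, origin, season and light cycle cannot be told apart.

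In moths and butterflies the female carries unlike sex chromosomes, Z and W, and the male a pair of Z chromosomes. Transcripts of a W-linked gene can therefore come only from females, and a Z-linked gene has more copies in males unless dosage is balanced. Pools of a few brains also differ through single animals, dissection and library preparation. None of the deposited gene identifiers is paired with a name, and 0 of 15130 matched the RefSeq gene table used here, so no function is given for any member, and lists of brain cell types, clock genes or sex-determination genes could not be used. Members are named by identifier and located by scaffold as deposited, on a genome build not given in the sources used here.

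Reads recovered in genes ranged from 5.47 M to 10.6 M (1e6 reads) per library. One library stood apart: the median correlation of Migrant ZT22 rep1 with its own group was 0.866, the lowest of the 48. Members took a median of 0.885% of the reads in LP rep1 pools and 0.649% in LP rep2 pools, 1.58% and 0.952% in SP, and 0.773% and 0.645% in Migrant.

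The members were split, by a cutoff on LP and SP given below, into a small set nearly absent from rep2 pools and a larger set with a graded shift. In LP the median rep1 minus rep2 difference of the 40 members was 0.54 on the log2(FPKM + 1) scale, while SP had 0.41 and Migrant 0.28. Over all tested genes the medians were -0.0012, -0.16 and -0.065. Being higher in rep1 in all 8 LP pairs was part of the rule, and 5.92% of tested genes met it. In SP 22 of the 40 members were higher in rep1 in all 8 pairs, where 1.75% of tested genes were. In Migrant 6 members were, where 0.396% of tested genes were. These 6 were DPOGS200003, DPOGS213736, DPOGS211681, DPOGS206162, DPOGS201369 and DPOGS212716, and no other tested gene was higher in rep1 in all 24 pairs.

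A stricter description asks that the lowest rep1 library of a group lay above its highest rep2 library. In LP 26 members met this, where 1.34% of tested genes did. The number was 13 members in SP, beside 0.43% of tested genes, and 4 in Migrant, beside 0.0602%. Those 4, DPOGS200003, DPOGS213736, DPOGS211681 and DPOGS212716, met it in all 3 groups, and no other tested gene did. Because the members were picked by this contrast, nothing is read from how these shares compare.

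**Figure D1:**
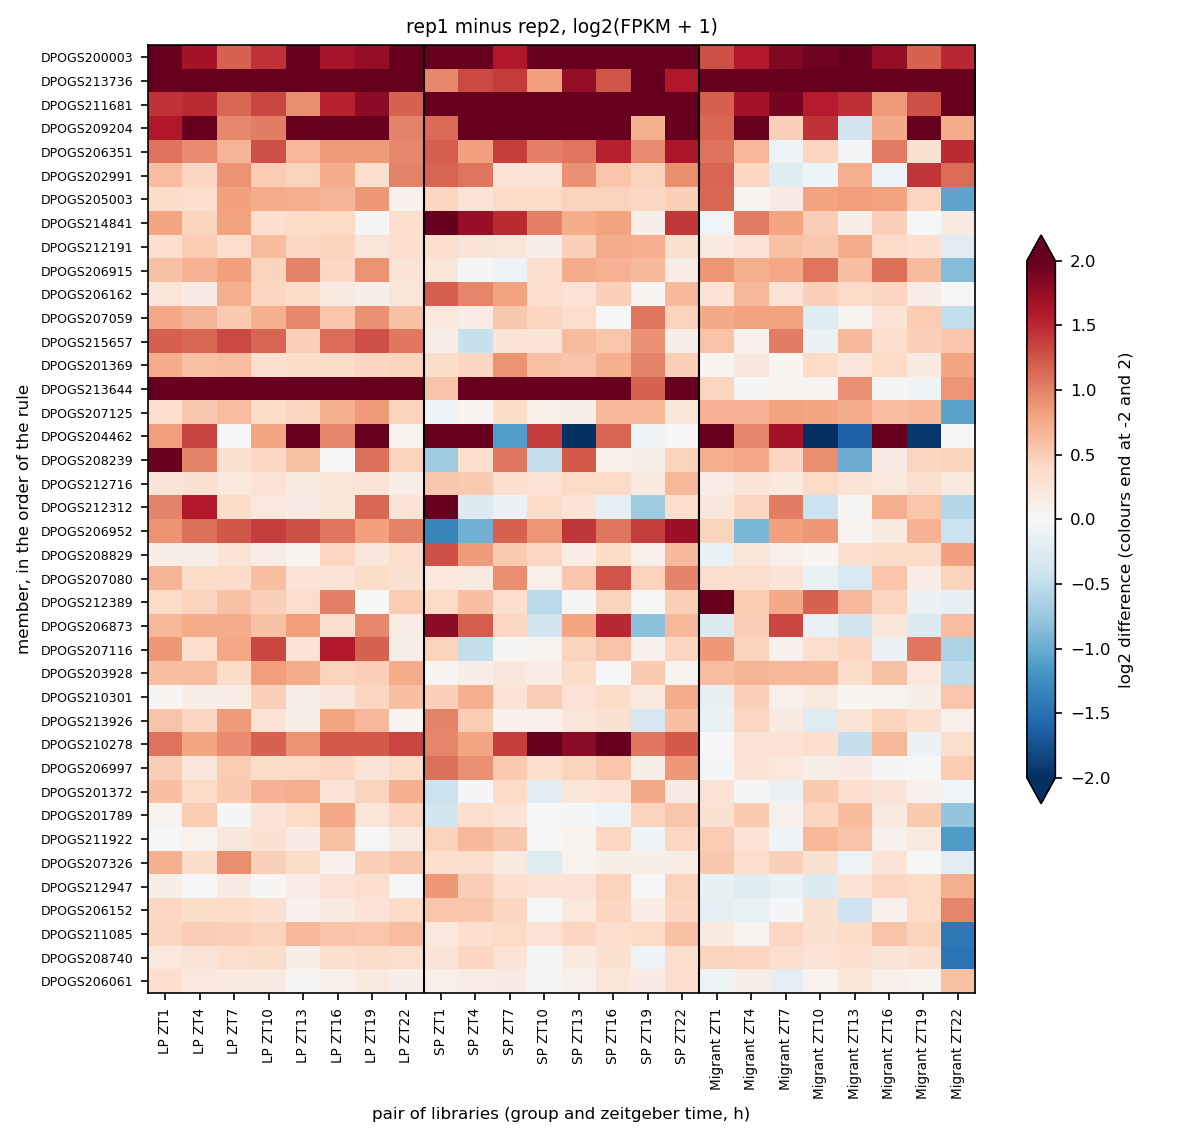
Differences of rep1 minus rep2 in log2(FPKM + 1) for the 40 members (rows, in the order of the rule) in each of the 24 pairs of libraries (columns, group and ZT in hours). Red is higher in rep1 and blue higher in rep2, and colours end at -2 and 2. Every LP cell is above 0 by the rule. The pair with the fewest members higher in rep1 was Migrant ZT22, at 23 of 40. Blue cells also lay elsewhere, as members higher in rep1 ran from 30 to 38 in the other Migrant pairs and from 32 to 39 in SP.

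Among the members the excess was weakest in Migrant. The rule asked for an excess in every pair only in LP and used the differences of all 3 groups. Nothing is therefore read from this order of groups. The largest of a member's 3 group differences lay in LP for 21 members, in SP for 18 and in Migrant for 1, DPOGS212389. The smallest lay in Migrant for 24 members, in SP for 12 and in LP for 4. Single pairs mattered: across the SP pairs 32 (ZT10) to 39 (ZT22) members were higher in rep1, while the share of all tested genes higher in rep1 ran from 19.9% to 58.8%. Across the Migrant pairs the members ran from 23 at ZT22 to 38 at ZT16, and all tested genes from 34.9% to 53.5%. Without the ZT22 pair, 14 members were higher in rep1 in all 7 other Migrant pairs, beside 1.74% of tested genes, and 12 had rep1 libraries wholly above rep2 libraries, beside 0.327%.

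A set of 6 members was nearly absent from rep2 pools, with a rep2 mean FPKM of at most 0.1 of the rep1 mean in both LP and SP. That cutoff was chosen after the values were seen. In all, 23 tested genes met it, of which 6 were members. The 6 are DPOGS200003, DPOGS213736, DPOGS211681, DPOGS209204, DPOGS213644 and DPOGS210278, and each lies on a scaffold of its own. Reads per gene were recovered from the deposited confidence limits. The intervals on ratios below are at 95% confidence and cover counting error only. They leave out the spread between pools and the selection of the genes on this contrast, so they are not a test of it. Where rep2 summed to 0 reads, the ratio is given as at least the rep1 sum over 3 reads for the group, which leaves out the counting error of rep1.

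DPOGS213736 (scaffold DPSCF300619, 2733 to 6137) was the only annotated gene of its scaffold. Its LP rep1 pools ran from 7.55 to 10.1 FPKM (median 9.41), and its LP rep2 pools were at 0 except for 0.0421 FPKM at ZT19. In Migrant the rep1 pools ran from 3.36 to 8.34 FPKM (median 7.37), with all rep2 pools at 0 except for 0.0397 FPKM at ZT16. SP rep1 pools were lower, from 0.761 to 3.38 FPKM (median 1.57), and every SP rep2 pool was at 0. The groups of pools did not overlap anywhere. Summed over the 8 libraries, recovered reads were 1717 in rep1 and 1 in rep2 in LP, 1429 and 1 in Migrant, and 267 and 0 in SP, where rep1 was at least 80.6-fold higher after scaling to depth. The mean difference on the log2(FPKM + 1) scale was 3.32 ± 0.15 (SD over 8 pairs) in LP, 2.94 ± 0.34 in Migrant and 1.40 ± 0.43 in SP. The lowest Migrant rep1 pool was that of ZT22, the library that stood apart.

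DPOGS200003 (DPSCF300466, 57981 to 58372) spans 391 bases and rested on few reads, 3.75 per library on average. Its rep1 pools ran from 1.26 to 3.41 FPKM in LP (median 2.28), from 3.54 to 7.95 in SP (median 4.65) and from 1.26 to 2.96 in Migrant (median 2.19). Every rep2 pool of LP and Migrant was at 0, and the SP rep2 pools were at 0 except for 0.497 FPKM at ZT7. All 24 rep1 pools thus lay above all 24 rep2 pools. Reads summed to 50 in rep1 and 0 in rep2 in LP, at least 18.2-fold higher, and to 51 and 0 in Migrant, at least 16.9-fold higher. In SP they summed to 78 and 1, a ratio of 70.5 (95% interval 12.3 to 2829).

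DPOGS211681 (DPSCF300151, 414398 to 415620) was the last annotated gene on its scaffold, which held 20. LP rep1 pools ran from 0.896 to 2.47 FPKM (median 1.62) and LP rep2 pools were all at 0. SP rep1 pools were higher, from 3.69 to 5.33 FPKM (median 4.72), and the SP rep2 pools were at 0 except for 0.173 FPKM at ZT16. Migrant rep1 pools ran from 0.928 to 4.36 FPKM (median 1.86), highest at ZT22, and the rep2 pools reached 0.0662 FPKM with 5 of 8 at 0. Rep1 and rep2 pools did not overlap in any group. In LP 182 reads in rep1 stood against 0 in rep2, at least 66.3-fold higher. The ratio was 190 (52.0 to 1566) in SP, from 417 and 2 reads, and 86.9 (29.4 to 424) in Migrant, from 262 and 3 reads.

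DPOGS209204 (DPSCF300061, 808437 to 816762) varied far more between the rep1 pools of a group. SP rep1 pools ran from 1.14 FPKM at ZT19 to 19.5 at ZT7 (median 8.53), and SP rep2 pools from 0 to 0.621 (median 0.295). LP rep1 pools ran from 0.942 at ZT7 to 6.15 at ZT19 (median 3.30), and LP rep2 pools from 0 to 0.642 (median 0.114). The pools did not overlap in LP or SP. Migrant rep1 pools ran from 0.196 to 3.85 FPKM (median 1.56) and rep2 pools from 0 to 0.562 (median 0.099), and rep1 was lower in 1 pair, ZT13, with 0.196 against 0.562 FPKM. The depth-scaled ratio of reads was 35.7 (17.1 to 89.8) in SP, 17.8 (8.36 to 45.2) in LP and 9.40 (4.31 to 24.3) in Migrant. Its average of 9.93 reads per library is few.

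DPOGS213644 (DPSCF300165, 50629 to 56912) was higher in LP and SP rep1 pools than in the Migrant rep1 pool of the same time at all 8 times. In LP its rep1 pools ran from 3.96 FPKM at ZT19 to 21.4 at ZT7 (median 7.86), with rep2 pools from 0 to 0.0842. SP rep1 pools ran from 0.508 at ZT1 to 13.0 at ZT4 (median 7.36), and SP rep2 pools reached 0.695 at ZT7, which overlapped the lowest rep1 pool. Migrant rep1 pools had a median of 0.0378 FPKM, but those of ZT1, ZT13 and ZT22 stood at 0.353, 1.00 and 1.16. Migrant rep2 pools ran from 0 to 0.172 FPKM. The ratio of reads reached 490 (280 to 949) in LP, 59.9 (44.8 to 80.5) in SP and 8.44 (5.50 to 13.5) for Migrant. The Migrant rep1 reads lay mostly in the pools of ZT13 and ZT22, with 81.9 and 84.0 of 203 reads. In SP both this gene and DPOGS209204 had their lowest rep1 pools at ZT1 and ZT19, but in LP the pool of ZT7 was highest for DPOGS213644 and lowest for DPOGS209204.

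DPOGS210278 (DPSCF300216, 174795 to 177461) showed the pattern in the laboratory groups and little of it in Migrant. LP rep1 pools ran from 0.807 to 1.70 FPKM (median 1.31) and LP rep2 pools from 0 to 0.158 (median 0.069). SP rep1 pools ran from 1.07 to 3.75 FPKM (median 2.14) and SP rep2 pools from 0 to 0.288 (median 0.205). Rep1 and rep2 pools did not overlap in either group. In Migrant rep1 pools ran from 0.0436 to 0.987 FPKM (median 0.303) and rep2 pools from 0.0462 to 0.521 (median 0.113), and rep1 was higher in 5 of 8 pairs. Ratios of reads were 17.8 (9.99 to 35.1) in LP, 13.5 (8.49 to 22.8) in SP and 1.95 (1.23 to 3.17) in Migrant.

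**Figure D2:**
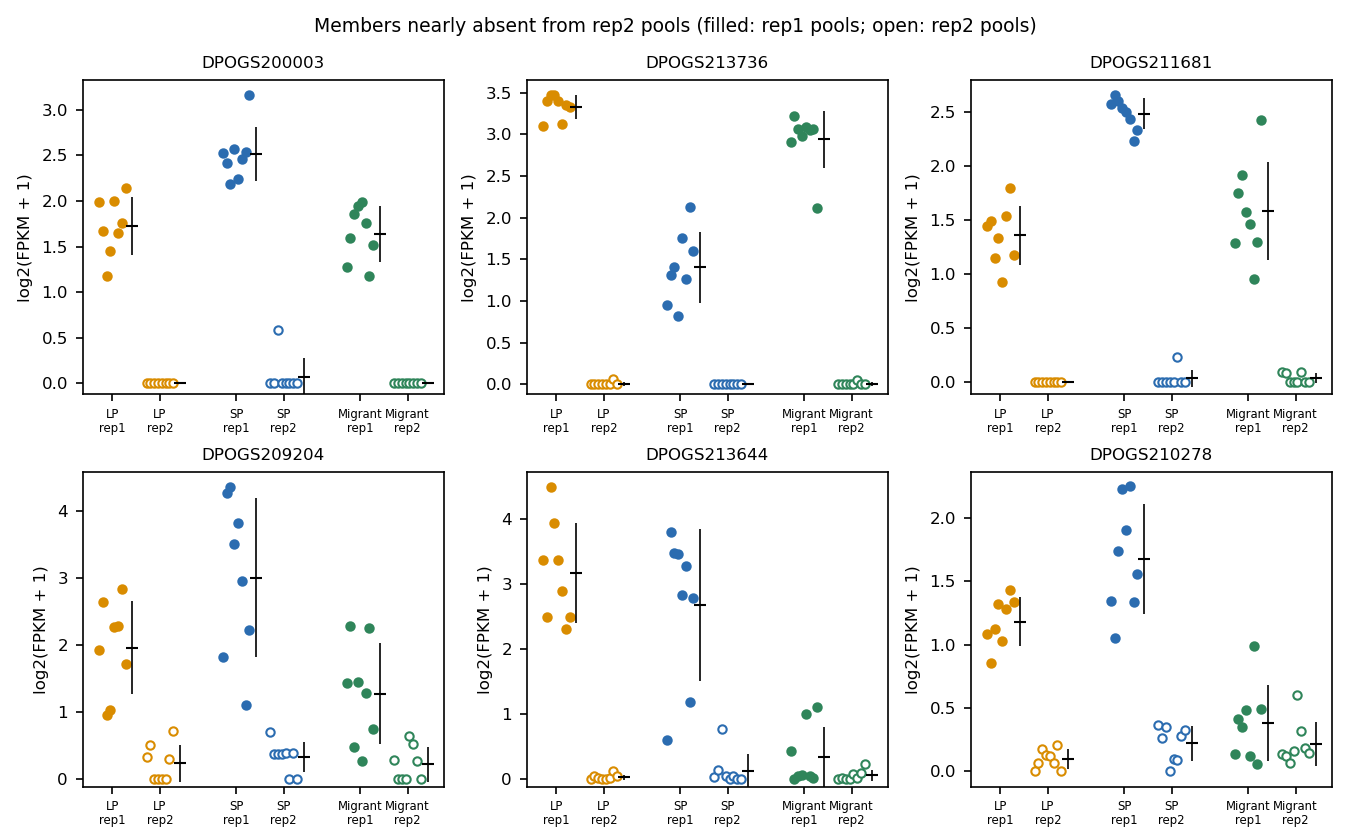
Expression, log2(FPKM + 1), of the 6 members nearly absent from rep2 pools, in rep1 pools (filled) and rep2 pools (open) of LP, SP and Migrant. Points are single libraries (8 per column), and the bars are the mean ± SD. The open points of DPOGS200003, DPOGS213736 and DPOGS211681 sit at or near 0 in every group, while DPOGS213644 and DPOGS210278 were low in the Migrant rep1 pools too.

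The direction of these near-absent genes by sex label follows from the rule, which takes rep1 in every group. A gene that followed the label in all groups could not be a member, so nothing is read from the direction. DPOGS213736, DPOGS200003 and DPOGS211681 were present in all pools labelled female and nearly absent from all pools labelled male in LP and Migrant. In SP they were present in all pools labelled male and nearly absent from all pools labelled female. Whether the labels, the sex of the brains or another property common to the rep1 pools goes with these genes was not tested.

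The other 34 members had reads in both rep1 and rep2 pools of every group, though not in each library. So had DPOGS209204, DPOGS213644 and DPOGS210278 of the near-absent set. The shift of the 34 was graded. Their ratio of mean FPKM, rep1 over rep2, ran from 1.11 to 3.53 in LP (median 1.48), from 1.10 to 3.25 in SP (median 1.33) and from 0.44 to 2.28 in Migrant (median 1.27). Their levels differed widely: over the 48 libraries 6 of the 34 averaged under 2 FPKM, 9 from 2 to 10, 12 from 10 to 100, 4 from 100 to 1000 and 3 at least 1000.

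DPOGS206351 (DPSCF300082, 629486 to 629808) came first among them in the order of the rule. Its rep1 pools ran from 102 to 137 FPKM in LP (median 112) and its rep2 pools from 51.9 to 71.9 (median 59.4). SP rep1 pools ran from 159 to 231 FPKM (median 205) and SP rep2 pools from 71.8 to 103 (median 89.1). The pools did not overlap in LP or SP. Migrant pools were several times lower and overlapped, with rep1 from 16.3 to 34.1 FPKM (median 25.7) and rep2 from 11.2 to 25.3 (median 15.0). The log2 difference averaged 0.92 ± 0.21 in LP (SD over 8 pairs), 1.20 ± 0.30 in SP, and 0.61 ± 0.57 for Migrant, and rep1 was higher in 6 of 8 Migrant pairs.

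DPOGS214841 (DPSCF300091, 350168 to 352228) was among the most abundant members. In LP its rep1 pools spanned 6926 to 10998 FPKM (median 8231) and LP rep2 pools from 5532 to 6825 (median 6156). SP rep1 pools ran from 14248 to 28193 FPKM (median 20534) and SP rep2 pools from 6650 to 13122 (median 9785). Both laboratory groups were free of overlap. In Migrant rep1 ran from 2595 to 5599 FPKM (median 4349) and rep2 from 2099 to 4960 (median 2951), with rep1 higher in 7 of 8 pairs. Its SP difference, 1.18 ± 0.63, ran from 0.12 to 2.08 between pairs, and its LP difference was 0.44 ± 0.25.

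DPOGS206162 (DPSCF300028, 1856925 to 1857574) was higher in rep1 in all 24 pairs by a modest step. LP rep1 pools ran from 143 to 175 FPKM (median 159.8) and rep2 pools from 105 to 155 (median 130.3). In SP rep1 ran from 296 to 504 FPKM (median 395) and rep2 from 208 to 298 (median 266), and in Migrant rep1 ran from 88.0 to 119 (median 106) and rep2 from 61.1 to 97.3 (median 84.8). Rep1 and rep2 libraries overlapped in each group, although each pair had the same sign. The differences were 0.31 ± 0.20, 0.60 ± 0.38 and 0.34 ± 0.20 in LP, SP and Migrant, with a smallest Migrant pair of 0.01.

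DPOGS201369 (DPSCF300083, 175997 to 198345) also had the same sign in all 24 pairs. In LP rep1 ran from 433 to 570 FPKM (median 487) and rep2 pools from 336 to 363 (median 357), and SP rep1 pools from 267 to 354 (median 297) and rep2 pools from 162 to 225 (median 187). Neither group overlapped. In Migrant rep1 ran from 264 to 438 FPKM (median 281) and rep2 from 208 to 284 (median 248), with overlap. The differences were 0.49 ± 0.15, 0.63 ± 0.22 and 0.29 ± 0.24.

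DPOGS212716 (DPSCF300012, 482452 to 486727) had a shift that varied little between pairs in LP and Migrant. In LP rep1 ran from 119 to 127 FPKM (median 124) and LP rep2 pools from 101 to 108 (median 105). SP rep1 ran from 209 to 251 FPKM (median 229) and rep2 from 145 to 189 (median 179), and Migrant rep1 from 86.4 to 95.9 (median 91.3) and rep2 from 66.8 to 83.7 (median 76.6). It was the only member of the 34 whose rep1 and rep2 libraries did not overlap in any group, with differences of 0.23 ± 0.06, 0.42 ± 0.15 and 0.25 ± 0.08.

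**Figure D3:**
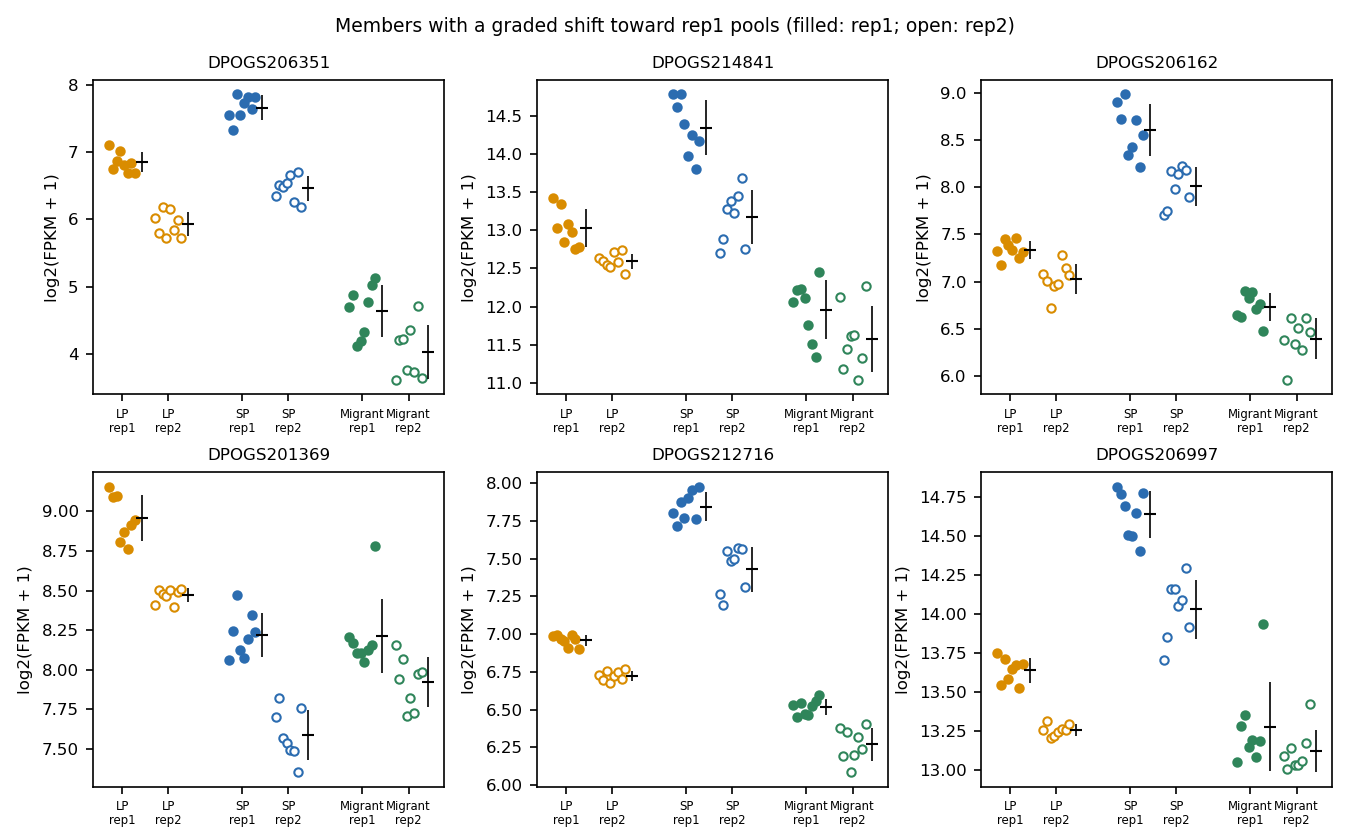
Expression, log2(FPKM + 1), of 6 members with a graded shift, in rep1 pools (filled) and rep2 pools (open) of LP, SP and Migrant. Points are single libraries (8 per column), the bars are the mean ± SD, and the vertical axes start above 0. Filled points lie wholly above open points in every group for DPOGS212716, and in LP and SP for DPOGS206351, DPOGS214841, DPOGS201369 and DPOGS206997.

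Other early members by the rule differed in how far Migrant shared the shift. DPOGS202991 (DPSCF300068, 297214 to 302551) had mean FPKM of 7.66 ± 0.84 in rep1 and 4.64 ± 0.81 in rep2 in LP (SD, n = 8 each). In SP it had 10.8 ± 1.83 and 6.22 ± 1.25, and in Migrant 9.82 ± 2.20 and 6.64 ± 2.84. Its libraries were apart in LP and overlapped in SP and Migrant, where 5 of 8 pairs were higher in rep1. DPOGS205003 (DPSCF300123, 266739 to 268844) had 57.0 ± 7.04 and 38.0 ± 5.55 FPKM in LP, 73.3 ± 12.1 and 54.6 ± 7.59 in SP, and 31.6 ± 10.7 and 22.6 ± 4.14 in Migrant. Its SP differences were close to each other, 0.41 ± 0.06, and its 1 reversed Migrant pair was ZT22, with a difference of -1.06.

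DPOGS212191 (DPSCF300459, 21192 to 23009) had 63.6 ± 3.35 FPKM in rep1 and 47.7 ± 3.87 in rep2 in LP, 70.7 ± 7.17 and 53.2 ± 4.12 in SP, and 54.5 ± 8.38 and 42.1 ± 3.30 in Migrant. Its differences were nearly equal in the groups, at 0.41, 0.40 and 0.35, and its 1 reversed pair was again Migrant ZT22. Its libraries were apart in LP and SP and overlapped in Migrant. DPOGS215657 (DPSCF300041, 1369983 to 1374674) had the largest LP ratio of the 34, with 2.87 ± 0.40 FPKM in rep1 and 0.814 ± 0.22 in rep2. It shifted less elsewhere, with 1.44 ± 0.63 and 0.925 ± 0.24 in SP and 2.00 ± 0.27 and 1.23 ± 0.50 in Migrant, and only its LP libraries were free of overlap.

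Reads averaged under 10 per library for 4 members, which limits what their FPKM can show. Besides DPOGS200003 and DPOGS209204 these were DPOGS204462 (DPSCF300002, 434776 to 437414; 2.46 reads) and DPOGS212312 (DPSCF300019, 1171193 to 1175783; 5.55 reads). DPOGS204462 was higher in rep1 in 4 of 8 pairs in SP and in 4 of 8 in Migrant. Its Migrant mean was 7.08 ± 5.88 FPKM in rep1 and 16.1 ± 35.9 in rep2, the only ratio under 1 among the members, and 1 library, Migrant ZT10 rep2, held 104 FPKM. DPOGS212312 was higher in rep1 in 4 of 8 SP pairs and 6 of 8 Migrant pairs, and 1 SP pair, ZT1, differed by 2.11.

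The members lay on 29 scaffolds, 25 of which held a single member. Scaffold DPSCF300001 held 8 members, 20% of the list, and 357 of the tested genes, 3.07%. The mirrored list, the 40 genes chosen in the same way for higher values in rep2, had 10 genes on the same scaffold, 25%, and 15 scaffolds in all. The 8 members were spread from 208130 to 3449516 on a scaffold annotated up to 6239289, with 10 to 74 annotated genes between neighbours, so they were not a run of adjacent genes. In order they were DPOGS206952, DPOGS206997, DPOGS206915, DPOGS207059, DPOGS206873, DPOGS207080, DPOGS207116 and DPOGS207125.

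In LP, where the rule asked for an excess at each time, their ratio of means ran from 1.31 to 2.69 (median 2.15), and rep1 lay wholly above rep2 in 7 of 8. In SP the ratio ran from 1.19 to 3.25 (median 1.68) and 1 of 8 was free of overlap, and in Migrant it ran from 1.13 to 2.28 (median 1.38) with none of the 8 free of overlap or higher in rep1 in all pairs. DPOGS206997 (896296 to 902682), the most abundant member at a mean of 14038 FPKM, was the SP exception. Its LP rep1 pools ran from 11792 to 13820 FPKM (median 12969) and rep2 pools from 9472 to 10222 (median 9785), and its SP rep1 pools from 21733 to 28897 (median 26093) and rep2 pools from 13401 to 20082 (median 17251). In Migrant its pools overlapped, with medians of 9355 and 8633.

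DPOGS206915 (1442793 to 1445389) and DPOGS207059 (2234732 to 2236512) were weakly expressed. DPOGS206915 had 1.44 ± 0.27 FPKM in rep1 and 0.566 ± 0.14 in rep2 in LP, 1.05 ± 0.30 and 0.622 ± 0.21 in SP, and 1.99 ± 0.80 and 0.872 ± 0.22 in Migrant. Its only Migrant reversal was the ZT22 pair, at -0.86. DPOGS207059 had 1.85 ± 0.38 and 0.730 ± 0.12 FPKM in LP, 1.25 ± 0.35 and 0.693 ± 0.22 in SP, and 2.06 ± 1.04 and 1.49 ± 1.23 in Migrant, where 6 of 8 pairs were higher in rep1. Both were apart in LP and overlapped in SP and Migrant. DPOGS206952 (208130 to 212736) had 10.8 ± 1.05 and 4.51 ± 0.60 FPKM in LP, but its SP pairs ran from -1.31 to 1.71.

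More than 1 member lay on each of 3 other scaffolds. DPSCF300028 held DPOGS206061, DPOGS206152 and DPOGS206162, with 67 and 16 annotated genes between them. DPSCF300083 held DPOGS201372 and DPOGS201369, with 5 genes between them, and DPSCF300019 held DPOGS212389 and DPOGS212312, with 24 between them. Members had a median span of 2556.5 bases on the scaffold and a median level of 9.09 FPKM. For all tested genes the medians were 3430.5 bases and 18.6 FPKM, and for the mirrored list 2864.5 bases and 12.3 FPKM. These differences were not tested.

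At the threshold of the rule, the last member, DPOGS206061 (DPSCF300028, 582124 to 596005), had an LP difference of 0.17, an SP difference of 0.15 and a Migrant difference of 0.12. The first gene outside, DPOGS213059 (DPSCF300016, 1055294 to 1055975), had 0.45, 0.44 and 0.11. It was left out by its Migrant value alone.

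Mean levels of the members were compared between groups, averaging rep1 and rep2 pools over the 8 times. In both Migrant contrasts, kit, origin, season and light cycle cannot be told apart. All groups entered 1 limma fit, with p adjusted over the 11630 tested genes. The 2 contrasts with LP share its libraries, and the SP libraries enter both contrasts with SP, so each contrast is given by its own values. The group means of the 6 near-absent members rest mostly on their rep1 pools in LP and SP, where the rule picked them, so none of the 6 is named for a contrast, and counts are given both for the 40 members and for the 34 others. The model leaves the rep1 minus rep2 difference in the spread between libraries, which makes it large for the members. In brain tissue, fewer cells of a type and less RNA per cell cannot be told apart.

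Against LP, 21 of the 40 members were higher in SP and 2 were lower, with 17 not called (limma, adjusted p under 0.05). The 6 near-absent members were all among those not called. Of all tested genes 39.2% were called higher and 40.8% lower. The median log2 fold change of the members was 0.48, and that of the tested genes -0.0019. This contrast is not independent of how the members were chosen: over the 11590 other tested genes, the SP rep1 minus rep2 difference and the SP minus LP fold change correlated at 0.72. The same libraries enter both measures and genes are not independent. Nothing is therefore read from the members' count. For Migrant the corresponding correlation was 0.083. The LP rep1 minus rep2 difference, which the rule also used, was not set against either fold change over LP.

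DPOGS206162 rose the most in SP among the called members. It ran from 105 to 175 FPKM in the 16 LP libraries (median 147) and from 208 to 504 in the 16 SP libraries (median 297), with no overlap. Its log2 fold change was 1.12 ± 0.12 (SE, limma adjusted p = 3.07e-09). DPOGS213926 (DPSCF300218, 318791 to 319359) ran from 0.541 to 5.18 FPKM in LP (median 1.59) and from 2.71 to 7.91 in SP (median 4.18), and the ranges overlapped. Its log2 fold change was 1.04 ± 0.11 (limma adjusted p = 3.09e-09).

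The 2 members that fell in SP were DPOGS201369 and DPOGS203928. DPOGS201369 ran from 336 to 570 FPKM in LP (median 398) and from 162 to 354 in SP (median 246), and its log2 fold change was -0.81 ± 0.13 (limma adjusted p = 1.83e-06). The LP and SP ranges overlapped, since the SP rep1 pools reached the LP rep2 pools. DPOGS203928 (DPSCF300005, 469266 to 502628), the longest member, ran from 0.617 to 2.42 FPKM in LP (median 1.14) and from 0.291 to 0.868 in SP (median 0.457), with overlap. Its log2 fold change was -0.59 ± 0.12 (limma adjusted p = 1.05e-04).

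Against LP, 2 members were higher in Migrant and 18 lower, with 20 not called (limma). Without the near-absent members, 2 of 34 were higher and 17 lower. Of tested genes 7.64% were higher and 63.4% lower, and the medians were -0.35 for the members and -0.385 for the tested genes. The members thus moved by about as much as the bulk of the genes. After median-ratio scaling, which removed that shift, 8 members were higher and 6 lower, beside 23.6% and 26.6% of tested genes, and the medians were -0.036 and -0.026.

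DPOGS213926 was higher in Migrant under both scalings, from 3.06 to 12.7 FPKM (median 6.58), a log2 fold change over LP of 1.43 ± 0.11 as deposited (limma adjusted p = 1.90e-11) and 1.74 after scaling. DPOGS203928 ran from 0.868 to 3.67 FPKM in Migrant (median 1.94), and its log2 fold change was 0.37 ± 0.12 (limma adjusted p = 0.0106). The call was lost among rep1 libraries alone (0.27, limma adjusted p = 0.114). DPOGS206351 fell the most, from a median of 86.7 FPKM in LP to 18.3 in Migrant, where the libraries ran from 11.2 to 34.1 and lay wholly below LP. Its log2 fold change was -2.05 ± 0.24 (limma adjusted p = 2.60e-08), and -1.66 after scaling. DPOGS206152 (DPSCF300028, 1588115 to 1588442) had 2992 ± 365 FPKM in LP and 819 ± 247 in Migrant (SD, n = 16 each). It fell by 1.90 ± 0.09 on the log2 scale (limma adjusted p = 2.49e-15).

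Against SP, 3 members were higher in Migrant and 24 lower, with 13 not called (limma), beside 29.5% and 52.2% of tested genes. Without the near-absent members, 3 of 34 were higher and 23 lower. The median log2 fold change was -0.80 for the members and -0.30 for the tested genes, and after scaling -0.48 and 0.0076, with 6 members higher and 22 lower beside 41.4% and 40.5% of tested genes. The SP libraries tie this contrast to the selection too: over the 11590 other tested genes the SP rep1 minus rep2 difference and the Migrant minus SP fold change correlated at -0.59, so nothing is read from these counts and medians. DPOGS206351 fell by 2.72 ± 0.24 on the log2 scale, from an SP median of 131 FPKM, and DPOGS206152 fell by 2.40 ± 0.09 (limma adjusted p = 3.42e-11 and 1.70e-18). With quantile normalization the fall of DPOGS206152 was 0.92 on the log2 scale and stayed past the threshold. DPOGS203928 rose by 0.96 ± 0.12 (limma adjusted p = 6.66e-08) and DPOGS207059 by 0.42 ± 0.15 (limma adjusted p = 0.0118). DPOGS207059 overlapped widely, from 0.363 to 1.88 FPKM in SP and from 0.308 to 4.49 in Migrant. Its call was lost with quantile normalization (limma adjusted p = 0.0928) and among rep1 libraries alone (limma adjusted p = 0.0906).

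**Figure D4:**
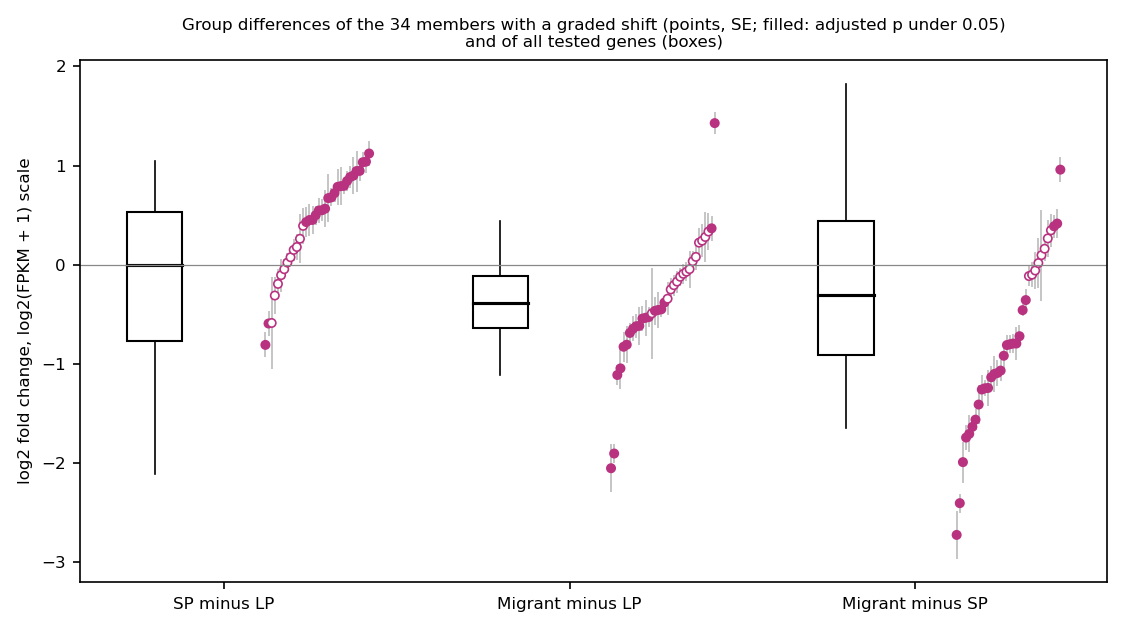
Log2 fold changes on the log2(FPKM + 1) scale of the 34 members with a graded shift (points with SE, ordered within each contrast, filled where the limma adjusted p was under 0.05), beside all tested genes (boxes, quartiles with whiskers from the 5th to the 95th percentile). Of the 34, 21 were called higher and 2 lower for SP minus LP, 2 and 17 for Migrant minus LP, and 3 and 23 for Migrant minus SP.

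A 24 h rhythm was tested in each group, since the rule did not use the time of day. No member was called in LP or SP (0 of 40 each by limma, 2 of 40 each at an unadjusted p under 0.05), where 0.447% and 0.929% of tested genes were called. In Migrant 2 members were called, beside 1.52% of tested genes, and 6 had an unadjusted p under 0.05, which 15.6% of tested genes had.

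DPOGS213926 was called in Migrant with an amplitude of 0.60 on the log2 scale and a fitted peak at ZT 2.00 (limma adjusted p = 0.0231). Its Migrant pools were highest at ZT1, with 11.5 and 12.7 FPKM, and lowest at ZT13, with 3.89 and 3.06. The call was lost without either pool of ZT1 or of ZT13 (limma adjusted p from 0.0509 to 0.0778), and with a pseudocount of 0.1 (limma adjusted p = 0.0795). Its LP amplitude was 0.46 with a peak at ZT 2.55 (limma adjusted p = 0.452) and its SP amplitude 0.31 with a peak at ZT 4.24 (limma adjusted p = 0.619). Whether the rhythm differed between groups was not tested. DPOGS204462 was called with an amplitude of 1.88 and a peak at ZT 8.63 (limma adjusted p = 0.0246), on the few reads given above. Without Migrant ZT10 rep2 its adjusted p was 0.122 (limma), and it was also lost without ZT19 rep1 or either pool of ZT22 (limma adjusted p from 0.0514 to 0.0738) and in a fit to Migrant libraries alone (limma adjusted p = 0.369).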

How the data were processed

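Brain RNA was sequenced in 48 libraries. Per the submitters' processing notes, CASAVA 1.8.2, TopHat2 and Cufflinks were used, and the authors deposited FPKM with confidence limits per gene. Versions of the latter tools and the genome build are not given in the sources used here. The scale of analysis was log2(FPKM + 1), a pseudocount of 1, for genes with a mean of at least 0.5 FPKM. The plus 1 makes fold changes of low genes smaller than ratios of FPKM.

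Reads were recovered as 4 times FPKM squared over the squared distance to its upper limit. Because 77.5% of values under 30 reads lay within 0.05 of a whole number, not nearly all, no count test was run. The intervals on ratios of the near-absent members are exact binomial intervals on reads rounded to whole numbers. They are therefore approximate. Reads ranged from 5.47 M to 10.6 M per library.

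Groups were compared with limma 3.58.1 (R 4.3.3, trend and robust options) in a model with 24 means of group and time, and rhythms by a 24 h cosine and sine per group, with Benjamini-Hochberg adjustment and calls at an adjusted p under 0.05. Models were tested on simulated data with independent noise per library and no shift between rep1 and rep2. That simulation therefore does not cover genes with such a shift, as the members have. Tables and plots used Python 3.11.15, pandas 2.3.3 and matplotlib 3.10.9. Nothing says that pools of one group came from separate rearings, so p-values measure the spread between these pools.

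Members, the mirrored list and the contrasts were chosen with earlier results of these data known. Genes are named by the order of the rule (the first 12), at the threshold, by shared scaffold, by the largest called fold changes (up to 2 in each direction) and by called rhythms. DPOGS213644, DPOGS210278, DPOGS201369, DPOGS212716 and DPOGS215657 are described more fully because of values already seen. Gene lists by function were not run, since identifiers had no names. Alternatives were another pseudocount, other filters, median-ratio and quantile scaling, replicate number or sex label as a covariate, fits to fewer groups and each library left out.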

Additional observations from a re-analysis of the deposited data

Results flagged for a closer look

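One count was set apart because the sex labels of rep1 run opposite ways in LP and SP. Of the 40 members, 22 were higher in the pool labelled female at 8 of 8 LP times and in the pool labelled male at 8 of 8 SP times. Of the 11630 tested genes, 49 were. The difference between the groups was not tested. Its opposite direction by sex label follows from the rule, which takes rep1 in every group, so nothing is read from it. In Migrant, where rep1 is labelled female as in LP, 6 of these were higher in the pool labelled female at 8 of 8 times.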

How the results depend on the processing

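No log2 fold change of a gene named for a contrast changed sign in any fit that kept the gene. For Migrant against LP the balance of called members turned, from 2 higher and 18 lower as deposited. It was 8 higher and 6 lower with median-ratio scaling, and 6 and 4 with quantile normalization. The member list kept 30 (quantile normalization) to 38 (pseudocount of 0.1) of its 40 genes under 5 settings. With 1 library left out it kept 32 (without either Migrant ZT22 pool) to 40. Throughout, 16 genes stayed, among them 8 of the first 12 by the rule. Of the near-absent members, DPOGS200003, DPOGS211681 and DPOGS210278 averaged 1.57, 1.40 and 0.73 FPKM and were lost at a mean FPKM of 2 or more. Replicate numbers were not shown to pair samples across groups: at the same time, rep1 minus rep2 differences of 2 groups correlated between -0.122 and 0.163. That check cannot show whether replicate number marks a shared factor within a group, where the sex label also follows it. With the replicate block, and with replicate number as a term in each group, members lower in SP than LP were 4, higher in Migrant than LP 5 and higher in Migrant than SP 7. Members higher in SP than LP were 25 and 27, lower in Migrant than LP 21 and 24, and lower in Migrant than SP 28 in both. The second also gave 179 rhythmic genes in SP and 327 in Migrant. With the sex label as a term, every gene named for a contrast or a rhythm kept its call and direction. With a mean FPKM of 2 or more, 1 member was lower in SP than LP, 1 higher in Migrant than LP and 1 higher in Migrant than SP. Median-ratio scaling gave 8 members higher and 6 lower in Migrant than LP and 6 higher than SP. Quantile normalization gave 4 members lower in SP than LP, 6 higher and 4 lower in Migrant than LP, and 382 rhythmic Migrant genes. Fits to the compared groups alone called 140 genes rhythmic for LP, 48 for SP and 49 for Migrant. That fit and a pseudocount of 0.1 left 1 rhythmic Migrant member. Among rep1 libraries alone, added after seeing the data, 4 members were lower in SP than LP, and among rep2 libraries alone 5 were higher in Migrant than LP. With 1 library left out, rhythmic genes ranged from 47 to 82 in LP, 85 to 281 in SP (82 and 281 without Migrant ZT22 rep1, and 190 in SP without SP ZT1 rep1) and 114 (without Migrant ZT10 rep2) to 218 in Migrant. Rhythmic members ranged from 0 to 1 in SP (1 without SP ZT1 rep1) and 1 to 2 in Migrant. The cause of these changes was not tested. Depth limits the 4 members with under 10 reads per library.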
